A study of Mus musculus with 16 samples.

Results

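*Gal* and *Galr1*, the genes of the neuropeptide galanin and of one of its receptors, were taken by symbol in all 16 libraries, and are 2 of the 28683 genes listed in any library. Both were followed across neurons, glia, vascular cells and fibroblasts, across clusters of neurons and across the study's groups. Single cells of the hypothalamus and preoptic area were profiled by Drop-seq, which reads the 3′ end of each captured transcript together with a barcode of the cell and a molecular tag (UMI, unique molecular identifier), in 16 female mice with 1 library per mouse. All mice were of a mixed CD-1;129P2 background, were 8 to 10 weeks old at the start, received 28 daily subcutaneous injections and were killed 2 h after the last one. The wild-type group given corn oil held 3 mice, and the wild-type group given tamoxifen at 0.1 mg/kg held 5. The *Esr1* cKO groups carried floxed *Esr1* alleles (*Esr1* F/F) with the *Nkx2-1Cre* transgene, and 4 of these mice received oil and 4 tamoxifen at 0.1 mg/kg. The controls were littermates without Cre. The driver is a BAC transgene, so that deletion of *Esr1*, the gene of estrogen receptor α, follows the lineage of cells that expressed *Nkx2-1* and is not restricted to galanin cells or to one nucleus. That lineage also takes in cells outside the brain, such as those of the thyroid and the lung. The study cites earlier work in which *Esr1* expression was unchanged in such tissues of these cKO mice.

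Galanin is made from a longer precursor, which prohormone convertases cut at pairs of basic residues and which is then amidated at its C terminus. It is released from dense-core vesicles and acts on G protein-coupled receptors. GALR1 couples to Gi/o proteins, which inhibit adenylyl cyclase and open inwardly rectifying GIRK potassium channels, and so quiets the cell that carries it. In the hypothalamus galanin neurons have been tied to feeding, sleep, body temperature and parental behavior, and *Gal* is known as a gene that estrogens can induce in the pituitary and the brain.

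*Gal* (ENSMUSG00000024907.7) lies on chromosome 19 from 3409915 to 3414544 of GRCm38, on the minus strand, with 2 annotated transcripts of 6 exons each. The sequence that encodes mature galanin is shown because it is the product whose transcript was counted. It spans exons 3 and 4 of *Gal-201* (chr19:3411592-3413340, minus strand, with the intron left out), and the capitals mark the codons of the Lys-Arg pair before the peptide and of the Gly-Lys-Arg signal for cleavage and amidation after it.
Gal coding stretch: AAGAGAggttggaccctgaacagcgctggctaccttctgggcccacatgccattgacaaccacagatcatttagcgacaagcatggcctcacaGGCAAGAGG
Between these marks stand 29 codons, of the 141 coding codons of the transcript. The promoter is shown because the study deleted an estrogen receptor that binds DNA, and it comprises the 250 bases before the start of the longest *Gal* transcript (chr19:3414545-3414794, minus strand, GRCm38.p6).
Gal promoter: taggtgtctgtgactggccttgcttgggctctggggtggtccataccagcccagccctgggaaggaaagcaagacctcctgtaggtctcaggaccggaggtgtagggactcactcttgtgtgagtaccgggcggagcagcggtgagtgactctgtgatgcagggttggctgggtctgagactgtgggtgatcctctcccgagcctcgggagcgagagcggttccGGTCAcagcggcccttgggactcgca
The capitals mark the only match, on either strand, to the estrogen response element half-site GGTCA, 26 bases before the start. This half-site occurred in 35.2% of 32851 promoters of the same length. The window held no match to the whole palindromic element (GGTCA, 3 bases of any kind, TGACC), present in 0.0639% of promoters. It also held none to the cyclic AMP response element TGACGTCA (1.55%), to its half-site TGACG (17.8%), which overlaps the whole element, or to the AP-1 site TGAGTCA (4.46%).

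The libraries held 2634253 to 8038158 UMIs, and 55675 of 146538 barcodes were kept as cells, of which 9143 were neurons, with 243 to 904 neurons in a library. The 10 neuronal markers summed to 19544 to 23912 CPM (UMIs per 1000000 UMIs) in neurons, against 4725 to 10537 CPM in all kept cells. Hypothalamic clusters led by *Oxt*, *Pomc*, *Agrp*, *Trh* and *Hdc* were present, and other clusters carried genes known from thalamus (*Shox2*, *Tcf7l2*) and habenula (*Gpr151*, *Pou4f1*). The third replicates of the wild-type oil and of the *Esr1* cKO tamoxifen group stood apart from the other libraries, at 130 and 127 on the first principal component of summed expression against -48.4 to -1.97. In addition, 4 libraries (wild-type tamoxifen replicates 4 and 5, *Esr1* cKO oil replicate 4 and *Esr1* cKO tamoxifen replicate 4) shared 303 to 359 kept barcodes per pair, against at most 42 in any other pair. Cells with a shared barcode made up 334 of the 9143 neurons and carried 109 of 11623 *Gal* UMIs and 5 of 155 *Galr1* UMIs. The 4 libraries that shared these barcodes carry the library numbers 13 to 16 and include no wild-type oil mouse. They were not left out together as a set. Values without the third replicates that stood apart, or without cells with a shared barcode, are given where they differ. Only 3′ ends were read, and where the deleted part of *Esr1* lies was not examined here, so the *Esr1* counts were not used as a check of the genotype.

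*Gal* lay almost wholly in neurons among the kept cells. Of 11896 *Gal* UMIs, 11623 (97.7%) lay in neurons, whose level was 620 ± 219 CPM (SD, n = 16 libraries, 101 to 998). At least 1 *Gal* UMI was found in 13.8% of neurons (95% Clopper-Pearson interval 13.1 to 14.6, counting error only). Neurons exceeded every other type in all 16 libraries. In the other types *Gal* stood at 12.9 ± 13.4 CPM in mural cells, 10.6 ± 8.70 in astrocytes, 6.27 ± 6.51 in microglia, 6.24 ± 5.57 in polydendrocytes, 6.2 ± 4.56 in endothelial cells, 5.27 ± 3.75 in oligodendrocytes, 4.45 ± 5.31 in ependymal cells and 4.21 ± 10.2 in fibroblasts (SD, n = 16). No 2 neighbours in that order below neurons differed beyond their spread.

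Free RNA gives a low level of abundant transcripts to every droplet, so the types that should lack *Gal* serve as its background. Over the 8 types other than neurons, 0.518% of 46334 cells held a *Gal* UMI, at a pooled 6.69 CPM. Barcodes with at most 200 genes, most of which hold no whole cell, held *Gal* at 72.9 ± 30.3 CPM (SD, n = 16). Depth differed too, with a median of 1490 UMIs in neurons, 482 in astrocytes and 86 in the low barcodes. When every cell was thinned to 500 UMIs and shallower cells were left out, the share of neurons with a *Gal* UMI was 8.83%. The same share in the other 8 types lay between 0.15% (ependymal cells) and 0.552% (mural cells), so that the neuronal share was above the background at matched depth too.

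*Galr1* (ENSMUSG00000024553.8, chromosome 18 from 82392380 to 82406777 of GRCm38, minus strand, 1 transcript of 3 exons) was sparse. The kept cells held 210 *Galr1* UMIs, of which 155 (73.8%) lay in neurons. The neuronal level was 8.25 ± 4.03 CPM (SD, n = 16, 1.63 to 16), and 130 neurons, or 1.42% (1.19 to 1.69), held at least 1 UMI, with no neuron above 3. In the 6 types other than neurons, mural cells and fibroblasts the pooled level was 0.527 CPM and 0.0442% of 43005 cells held a UMI. Polydendrocytes, the oligodendrocyte precursors, held a *Galr1* UMI in 0 of 4450 cells, which allows a share of cells with a UMI of up to 0.0829% at their median depth of 773 UMIs and sets no limit on cells that express the gene. Neurons were above mural cells (2.89 ± 4.69 CPM) in 12 of 16 libraries. The low barcodes held 4.16 ± 4.44 CPM, so for *Galr1* the neuronal level lay nearer to the level of free RNA than it did for *Gal*. Thinned to 500 UMIs, 0.328% (0.210 to 0.487) of neurons held a *Galr1* UMI, against 0% to 0.158% in the other types apart from fibroblasts.

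**Figure D1:**
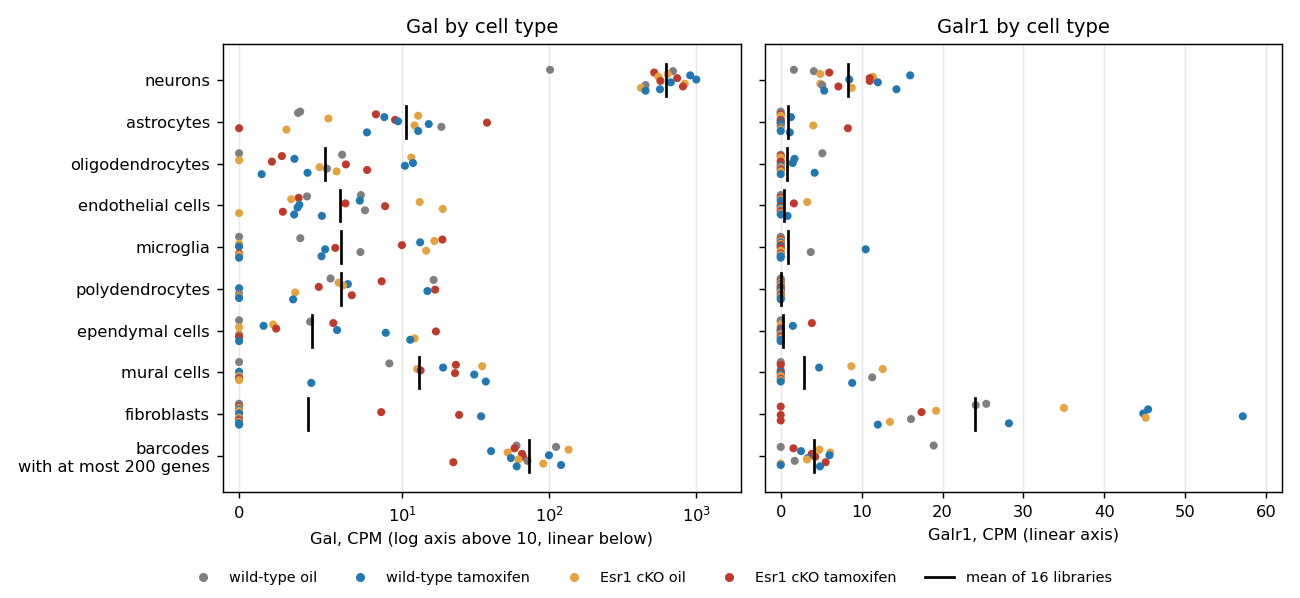
*Gal* (left, log axis above 10 CPM and linear below) and *Galr1* (right, linear axis) in each cell type and in barcodes with at most 200 genes. Each point is 1 of 16 libraries, colored by group, and the bar is the mean. *Gal* in neurons (101 to 998 CPM) stood above every other type in all libraries, whereas *Galr1* was highest in fibroblasts (24 ± 17.7 CPM) and next in neurons (8.25 ± 4.03 CPM).

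The highest level of *Galr1* was in fibroblasts, the cells of the meninges and vessel walls, and not in neurons. Fibroblasts held 29 *Galr1* UMIs in 24 of 969 cells (2.48%, 1.59 to 3.66), at 24 ± 17.7 CPM (SD, n = 16). They were above neurons in 13 of 16 libraries, although the 2 ranges overlapped and the difference lay within their spread. Thinned to 500 UMIs, 3 of 711 fibroblasts (0.422%) held a UMI. The wild-type oil libraries stood at 25.4, 16.1 and 24.1 CPM and the wild-type tamoxifen libraries at 57.1, 28.2, 12, 45.4 and 44.8. The *Esr1* cKO oil libraries stood at 45.1, 13.5, 35.0 and 19.2 CPM, and the *Esr1* cKO tamoxifen libraries at 0, 0, 0 and 17.4. The 3 libraries at 0 were thus all from *Esr1* cKO mice given tamoxifen, where 18 to 83 fibroblasts were kept per library, and the groups were not tested on so few UMIs. The fibroblasts fell into 2 finer clusters. The first, led by the matrix genes *Dcn* and *Lum* and the growth factor gene *Igf2*, held 1 *Galr1* UMI in 731 cells, and the other, led by *Prg4*, *Slc47a1* and *Nov*, held 28 UMIs in 23 of 237 cells (9.70%, 6.25 to 14.2), with a median depth of 719 and 1157 UMIs. *Gal* itself was at 5 UMIs in 3 of the 969 fibroblasts.

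Within neurons *Gal* was concentrated in few cells. No *Gal* UMI was found in 86.2% of neurons, whereas 645 neurons (7.05%) held at least 3 and carried 93.1% of the neuronal *Gal* UMIs. The 88 neurons with 30 or more UMIs, 0.962% of all, carried 44.8%, and the highest value was 212 UMIs in 1 neuron. *Galr1* showed no such tail, since 111 of its 130 positive neurons held a single UMI.

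**Figure D2:**
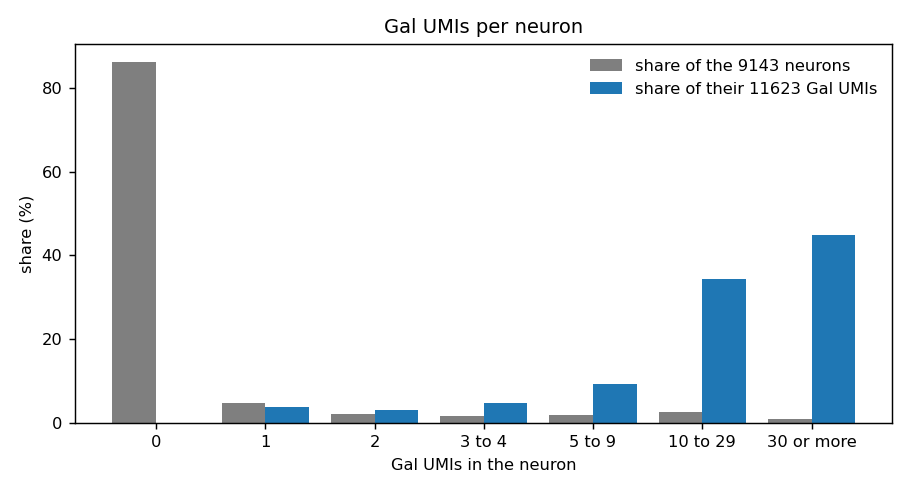
Share of the 9143 neurons (gray) and of their 11623 *Gal* UMIs (blue), in percent, by the number of *Gal* UMIs in a neuron. Neurons with 30 or more UMIs were 0.962% of neurons and held 44.8% of the UMIs.

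Neurons were divided into 24 clusters, each called by its leading gene. *Gal* took part in that clustering, so its levels by cluster are a description. The *Gal* cluster, of 1421 neurons, held 77.4% of the neuronal *Gal* UMIs and 442 of the 645 neurons with at least 3, at 2099 ± 888 CPM (SD, n = 16, 235 to 4187). A *Gal* UMI was found in 42.6% of its neurons (40.1 to 45.3), so that most neurons of the cluster held none. The *Oxt* cluster held both hormones of magnocellular neurons, with the vasopressin gene *Avp* at 98853 ± 30401 and *Oxt* at 30944 ± 26312 CPM (SD, n = 9 libraries). *Gal* in this cluster reached 374 ± 195 CPM in the 9 libraries with at least 10 such neurons, and 44.2% of its 147 neurons held a *Gal* UMI. The *Tac2* cluster, led by the neurokinin B gene of the arcuate nucleus and its neighbours, held 1214 CPM pooled over its 105 neurons and 36.2% of them with a UMI. The *Pomc* cluster, the melanocortin neurons of the arcuate nucleus, stood at a pooled 277 CPM and 18.5%. *Gal* was lowest among the large clusters in the *Vipr2* cluster, at a pooled 12.3 CPM, with a UMI in 1.68% of 894 neurons and none with 3. The *Gal* cluster was above the *Oxt* cluster by more than their spread, while the small or shallow clusters between them in mean level (*Hba-a2* at 758 ± 1637 CPM, n = 9, and *Vgf* at 575 ± 582, n = 12) varied by as much as their means and did not differ from their neighbours beyond that spread. Several clusters were led by genes of blood or glia (among them *Hba-a2*, *Itih3* and *Ctss*), and the *Gm26924* and *Vgf* clusters had median depths of 454 and 367 UMIs.

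*Galr1* UMIs were found in 15 of the 24 clusters. The *Gal* cluster held 48 of the 155 neuronal *Galr1* UMIs (31.0%), with a UMI in 2.89% (2.08 to 3.89) of its neurons. The *Trh* cluster, led by thyrotropin-releasing hormone, held 21 UMIs at a pooled 33.5 CPM, in 6.84% of 190 neurons. The *Oxt* cluster held 12 UMIs in 6.80% of 147 neurons, and the *Hdc* cluster, which carries the histamine-synthesis gene, held 6 UMIs in 6 of 50 neurons (12%). These counting intervals are wide, as the plot of clusters shows, and they overlapped between the 3 clusters. The *Gad2* and *Tac1* clusters held 17 and 15 UMIs. No *Galr1* UMI was detected in 9 clusters, among them *Foxb1* (0 of 284 neurons), *Pomc* (0 of 135), *Tac2* (0 of 105) and *Agrp* (0 of 66). The *Tac2* and *Pomc* clusters, high in *Gal*, were thus among those without a *Galr1* UMI, at cluster sizes that allow shares of up to a few percent. Across 31 cell types and clusters, on the log2(CPM + 10) scale, *Gal* and *Galr1* had a Pearson correlation of 0.44, over units that share the same libraries and differ in depth.

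**Figure D3:**
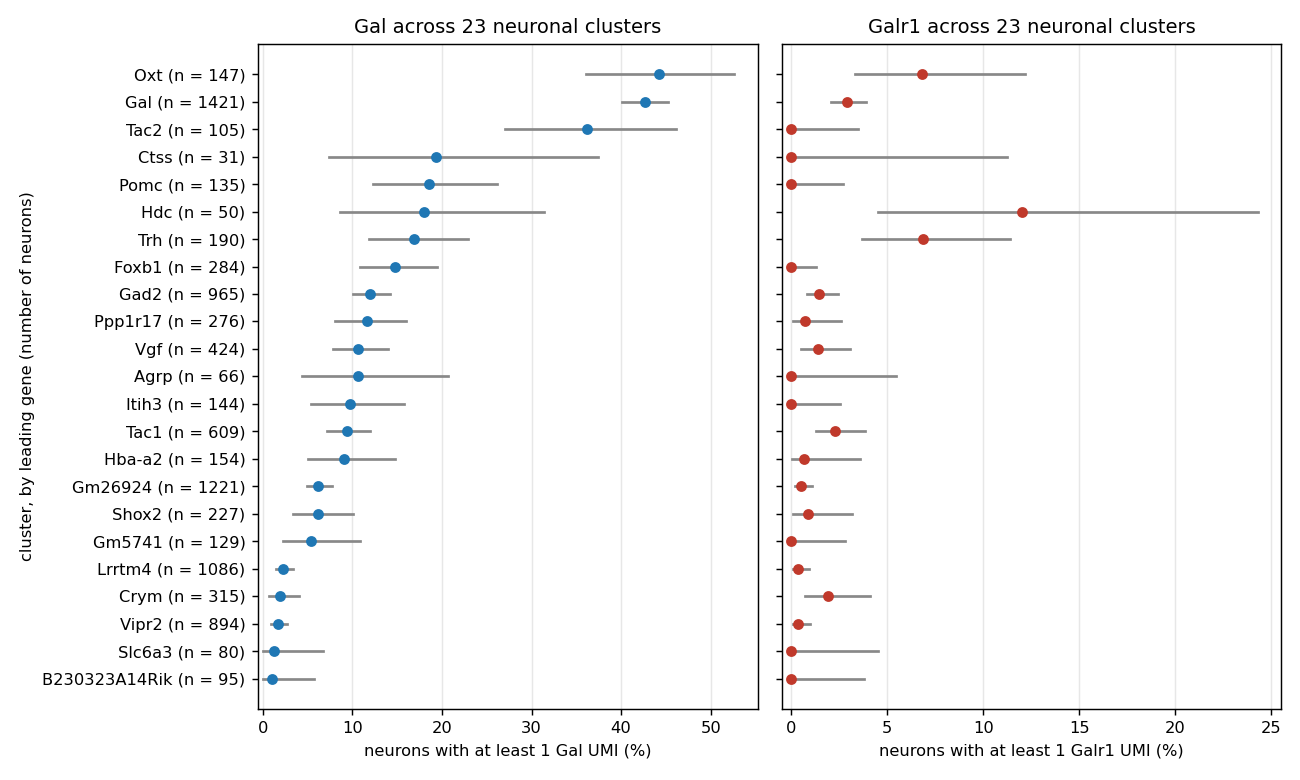
Share of neurons with at least 1 *Gal* UMI (left) and at least 1 *Galr1* UMI (right), in percent, in 23 of the 24 neuronal clusters, with 95% Clopper-Pearson intervals. The *Oxt* (44.2%) and *Gal* (42.6%) clusters led for *Gal*, and the *Hdc* (12%), *Trh* (6.84%) and *Oxt* (6.80%) clusters for *Galr1*.

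The genes whose levels across these 31 units were most like those of *Gal* were *Rwdd2a* (r = 0.82), the prolactin receptor gene *Prlr* (0.79), *Baiap3* (0.77), *Tmem91* (0.77) and the GABA-A receptor subunit gene *Gabrq* (0.76), out of 14490 genes. Those most like *Galr1* were the relaxin-3 receptor gene *Rxfp3* (0.77), the prostaglandin receptor gene *Ptger2* (0.68), the transcription factor gene *Fezf1* (0.67), the growth hormone-releasing hormone gene *Ghrh* (0.66) and *Amn* (0.66). *Galr1*, *Rxfp3* and *Ptger2* rest on few UMIs, with 129 *Rxfp3* and 65 *Ptger2* UMIs in neurons.

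Neurons were next split by fast transmitter, to ask which of them carry the ligand and the receptor. *Gal* was higher in GABAergic than in glutamatergic neurons, at 989 ± 479 against 193 ± 103 CPM (SD, n = 16), a log2 fold change of 2.31 ± 0.18 (SE) in edgeR's quasi-likelihood test with the library as a block (adjusted p = 8.1e-13). It was higher in 15 of 16 libraries, the exception being wild-type oil replicate 1, at 104 against 114 CPM. Of all genes tested in this comparison, 11.9% passed the threshold. A *Gal* UMI was found in 19.1% of 3934 GABAergic neurons and in 11.3% of 1606 glutamatergic neurons. *Galr1* was at 8.10 ± 6.38 CPM in GABAergic and 7.79 ± 6.52 in glutamatergic neurons, and the 2 ranges, 0 to 25.5 and 0 to 19.7, overlapped almost wholly. It was too low to enter that fit. In the fit without a filter on low counts its log2 difference was -0.04 ± 0.31 (SE), with an adjusted p of 0.987 in the edgeR test.

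The neurons that express *Gal* were compared with the neurons of the same libraries that held no *Gal* UMI. The comparison took 638 neurons with at least 3 *Gal* UMIs and 7567 with none, in the 15 libraries with at least 10 of each (wild-type oil replicate 1 held 7 and was left out). By edgeR's quasi-likelihood test with the library as a block, 1584 of 6138 genes differed, or 25.8%, with 854 higher and 730 lower. The classes differed in depth, with median UMIs of 3289 and 1343. The part that depth played in these calls was not tested beyond a repeat on neurons with at least 1000 UMIs, which called 517 genes higher and 576 lower.

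*Th*, the gene of the rate-limiting enzyme of dopamine synthesis, had the largest change of the genes that moved the same way in all 15 libraries. It stood at 65.5 to 294 CPM in *Gal* neurons, with a median of 117, and at 9.31 to 69.5 CPM, with a median of 30.8, in neurons without *Gal*, a log2 fold change of 2.17 ± 0.20 (adjusted p = 3.8e-11 in the edgeR test). *Fam46a* rose with it, from 43.4 ± 14.5 to 163 ± 60.3 CPM (SD, n = 15), by 1.87 ± 0.13. The other genes of that group were lower in *Gal* neurons: *Arpp21* (log2 fold change -2.07), *1500016L03Rik* (-1.97), the calmodulin-binding neurogranin gene *Nrgn* (-1.90), *Kctd16* (-1.80), whose product is an auxiliary GABA-B receptor subunit, the forebrain transcription factor gene *Six3* (-1.76), the teneurin gene *Tenm2* (-1.74), *Igfbp5* (-1.67) and the orphan receptor gene *Rora* (-1.53). Of the 213 genes called and moved the same way in every library, 18 were higher in *Gal* neurons. Direction was counted on levels scaled by edgeR's TMM factors. On unscaled CPM, *Nrgn* was higher in *Gal* neurons in 1 library, *Esr1* cKO tamoxifen replicate 2, at 113 against 106.

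Genes that make and package peptides were partly higher in *Gal* neurons. Of 9 genes tested, 5 rose and 1 fell, with a median log2 fold change of 0.28. Over all 6138 genes, 854 rose and 730 fell, with a median of 0.02. The granin genes *Chgb* (0.51 ± 0.08) and *Scg2* (0.51 ± 0.07), which help to form dense-core granules, and *Pcsk1n* (0.37 ± 0.06) and *Scg5* (0.28 ± 0.06), which code for partners of the convertases, rose. The convertase gene *Pcsk1* rose by 0.84 ± 0.22 (adjusted p = 0.00384 in the edgeR test), but this call was lost in DESeq2 (adjusted p = 0.213) and with robust dispersions (adjusted p = 0.0842), and it was higher in 8 of 15 libraries. The second convertase gene, *Pcsk2*, fell by 0.44 on the log2 scale, and was lower in 14 of 15 libraries. *Pam*, which amidates the peptide, stood at 673 against 619 CPM, with 0.15 ± 0.06 and an adjusted p of 0.0731 in the edgeR test.

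Among the transmitter genes, 4 of 7 tested rose and 1 fell, where 25.8% of all genes tested were called. Besides *Th*, the decarboxylase gene *Ddc* (0.58 ± 0.14), the GABA-synthesis gene *Gad2* (0.40 ± 0.07) and the vesicular GABA transporter gene *Slc32a1* (0.37 ± 0.10) rose, and the vesicular glutamate transporter gene *Slc17a6* fell by 1.33 on the log2 scale, from 237 to 91.7 CPM. *Slc6a3*, the dopamine transporter gene, did not enter that fit. Without a filter on low counts it was lower in *Gal* neurons (-4.67), and the growth hormone-releasing hormone gene *Ghrh* (4.47) and the transcription factor genes *Hmx2* (2.40) and *Hmx3* (2.07) were higher.

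*Gal* neurons differed from the rest in their other peptides, in both directions. Of 15 neuropeptide genes tested, 5 rose and 5 fell, where 25.8% of all genes tested were called, and the median log2 fold change was 0.06. *Tac2* (1.84 ± 0.31), the neurotensin gene *Nts* (1.45 ± 0.19) and the dynorphin gene *Pdyn* (1.09 ± 0.18) rose and held under DESeq2 and robust dispersions, whereas the calls of *Cartpt* (0.86 ± 0.22) and *Penk* (0.58 ± 0.15) did not. *Vip* (-3.79 ± 0.33), *Npy* (-3.12 ± 0.31), the somatostatin gene *Sst* (-2.29 ± 0.29), *Tac1* (-1.19 ± 0.25) and *Adcyap1* (-1.15 ± 0.21) fell. *Sst* stood at 0 to 519 CPM in *Gal* neurons, with a median of 6.11, and at 171 to 720 CPM, with a median of 448, in neurons without *Gal*, and was lower in 14 of 15 libraries.

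Of 16 receptor genes for hormones and peptides listed, 8 were high enough for the test. Of these 8, 5 rose and none fell, with a median log2 fold change of 0.81: the calcitonin receptor gene *Calcr* (1.13 ± 0.21), the kappa opioid receptor gene *Oprk1* (1.07 ± 0.17), *Prlr* (0.89 ± 0.10), *Esr1* (0.85 ± 0.17) and the neuropeptide Y receptor gene *Npy2r* (0.77 ± 0.18). Over all 6138 genes tested, 854 rose and 730 fell, with a median log2 fold change of 0.02. Without a filter on low counts, *Mc4r* (1.29), *Ghsr* (0.59), *Npy1r* (0.51) and *Gper1* (0.25) were higher. *Lepr* (-0.59), *Pgr* (-0.57), *Esr2* (-0.29) and *Glp1r* (-0.09) were lower in that fit. Only *Mc4r* among them was called (adjusted p = 0.00505 in the edgeR test). *Prlr* stood at 91.9 to 453 CPM in *Gal* neurons, with a median of 197, against 52.6 to 184 CPM, with a median of 113, and was higher in 14 of 15 libraries. *Esr1*, the gene deleted in the cKO mice, was higher in 12 of 15 libraries, at 89.4 ± 46.9 against 49.4 ± 15.4 CPM (SD, n = 15, adjusted p = 1.9e-04 in the edgeR test), and the ranges, 15.9 to 194 and 15.7 to 71.4, overlapped. Of 6 transcription factor genes tested, *Dlx1* (1.49 ± 0.11) and *Prox1* (0.81 ± 0.17) rose and *Zic1* and *Six3* fell.

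**Figure D4:**
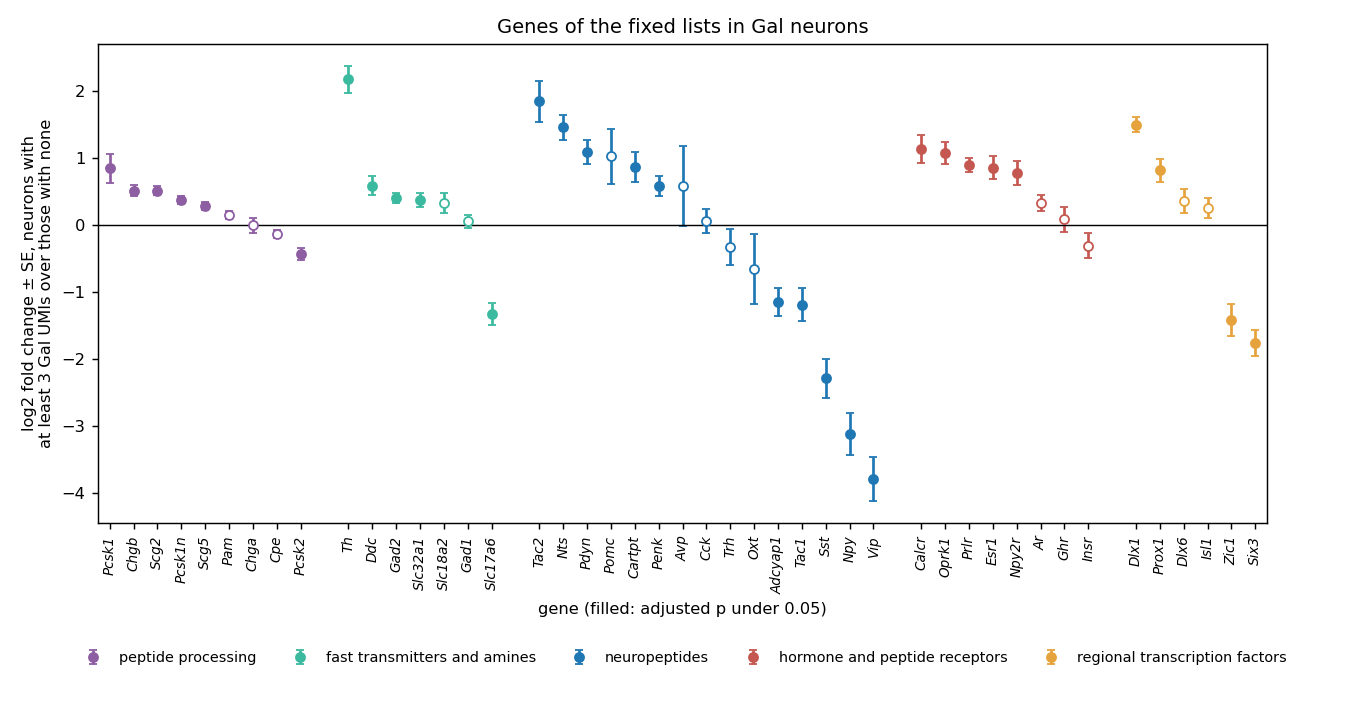
Log2 fold change (± SE) of each gene of the fixed lists that passed the filter on low counts, in neurons with at least 3 *Gal* UMIs over neurons with none, in 15 libraries, with filled points for an adjusted p under 0.05 and colors for the lists. Of these genes, hormone and peptide receptors lay mostly above 0 (5 of 8 rose, against 854 of all 6138 genes tested). Listed receptor genes that missed the filter are not shown and went both ways in the fit without it. Neuropeptide genes spread from -3.79 (*Vip*) to 1.84 (*Tac2*).

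Genes downstream of GALR1 were taken next. None of 4 Gi/o subunit genes and none of 3 GIRK subunit genes passed the edgeR or the DESeq2 test or had an unadjusted p under 0.05 in edgeR, with median log2 fold changes of 0.06 and -0.15. *Gnao1*, the main neuronal Go subunit, stood at 553 against 566 CPM. Of 4 adenylyl cyclase genes tested, *Adcy9* rose (0.38 ± 0.11) and *Adcy8* fell by 0.84 on the log2 scale. Both calls held in DESeq2 and with robust dispersions, where edgeR called 25.8% of all genes tested. In the fit without a filter on low counts, *Adcy1* was lower in *Gal* neurons (-1.76, adjusted p = 1.1e-06 in the edgeR test). *Adcy3* (-0.26), *Gnai3* (-0.18) and *Kcnj5* (-0.30) were not called in that fit.

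*Galr1* itself was tested in *Gal* neurons without a filter on low counts. It was at 22.1 CPM in neurons with at least 3 *Gal* UMIs and 6.43 CPM in neurons with none, a log2 fold change of 1.64 ± 0.30 (adjusted p = 2.3e-06 in edgeR's quasi-likelihood test), and was higher in 14 of 15 libraries. Counted by cell, 42 neurons held at least 3 *Gal* UMIs together with a *Galr1* UMI, against 15.5 if both were independent within each of 4 depth classes of a library, and the count lay above that number in 14 of 16 libraries. Deeper cells detect both genes more often, so the shares were also set side by side among deep neurons and within 1 cluster. Among neurons with at least 3000 UMIs, a *Galr1* UMI was found in 7.56% (5.04 to 10.8) of the 357 with at least 3 *Gal* UMIs and in 2.57% (1.88 to 3.43) of the other 1750. Within the *Gal* cluster the shares were 7.69% (5.39 to 10.6) of 442 neurons and 0.715% (0.288 to 1.47) of 979, with median depths of 3062 and 2404 UMIs. The intervals did not overlap in either set. They cover counting error only, since neurons of 1 mouse are not independent of each other.

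The same relation was examined from the side of the receptor. Only 6 libraries had at least 10 neurons with a *Galr1* UMI, which gave 76 neurons with and 4060 without, at median depths of 3356.5 and 1535 UMIs. *Gal* stood at 921 and 1694 CPM in the *Galr1* neurons of *Esr1* cKO tamoxifen replicates 1 and 3, against 554 and 487 in neurons without *Galr1*. It stood at 2194, 4667 and 5474 CPM in those of wild-type tamoxifen replicates 1, 2 and 4, against 633, 418 and 711, and at 1574 against 507 CPM in *Esr1* cKO oil replicate 4. *Gal* was thus higher in *Galr1* neurons in 6 of 6 libraries and the 2 sets of values did not overlap. How many other genes separate these classes without overlap was not counted. In this comparison 0.777% of 8755 genes were called. The log2 fold change of *Gal* was 2.03 ± 0.14, with an adjusted p of 2.0e-41 in edgeR's quasi-likelihood test and 2.1e-11 in DESeq2. That call was lost with robust dispersions (adjusted p = 0.209).

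Of the 68 genes called in *Galr1* neurons, 15 were higher and 53 lower, while DESeq2 called 2 higher and 4 lower. *Vip* was not detected in the *Galr1* neurons. The limit that 3 counts set would make it at least 7.63-fold lower over the class, if UMIs fell independently of each other. That limit does not hold where the UMIs of a gene gather in few neurons, as those of *Gal* did. The orexin gene *Hcrt* (log2 fold change -4.42), *Kctd16* (-3.77), *Pomc* (-3.67) and *1500016L03Rik* (-3.05) were also lower in 6 of 6 libraries. Of these 5, *Vip* and *Pomc* held in DESeq2 (adjusted p = 0.00783 for both). The class held 11 to 14 neurons per library. In neurons without *Galr1*, *Hcrt* stood at only 13.1 and 21.3 CPM in *Esr1* cKO tamoxifen replicates 1 and 3. It stood at 6.80 CPM in wild-type tamoxifen replicate 1. *Kctd16* stood at 3.31 CPM in *Esr1* cKO tamoxifen replicate 3. At levels that low, a lower value in so few neurons carries little weight in the count of libraries. Of all 9143 neurons, 23 held at least 3 *Hcrt* UMIs and 135 fell in the *Pomc* cluster. A class of this size can lack such rare neurons altogether. The part of this in the lower values was not tested.

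Other transmitter and peptide genes were called in both directions in *Galr1* neurons, without moving the same way in every library. *Sst*, at 4959 against 345 CPM, was higher in 5 of 6 libraries, by 3.40 ± 0.17 on the log2 scale (edgeR test, adjusted p = 4.8e-87). That call was lost in DESeq2 (adjusted p = 0.467) and with robust dispersions (adjusted p = 0.605). Of 8 transmitter genes tested, 3 were called higher: *Hdc* (2.90 ± 0.36), which was higher in 3 of 6 libraries, *Th* (1.58 ± 0.38, 5 of 6) and the vesicular monoamine transporter gene *Slc18a2* (1.42 ± 0.26, 3 of 6). *Hdc* and *Th* kept the call with robust dispersions, and none of these 3 passed in DESeq2. Of 17 neuropeptide genes tested, 1 was higher and 6 were lower, with a median log2 fold change of -1.02 against -0.11 over all genes. Beside *Vip*, *Hcrt* and *Pomc* the lower ones were *Tac2* (-2.58), *Npy* (-1.60) and *Oxt* (-1.15), whose calls were lost in DESeq2 and with robust dispersions. For *Oxt* the mean of the library levels went the other way, at 12063 CPM in *Galr1* neurons against 828 CPM, and it was lower in 4 of 6 libraries. The small size of the class limits the lower peptide values here in the same way.

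The signaling and processing lists gave no call. None of 5 Gi/o, 3 GIRK and 5 adenylyl cyclase genes, and none of 9 peptide-processing genes, passed the edgeR or the DESeq2 test in *Galr1* neurons. Their median log2 fold changes were -0.32, -0.29, -0.00 and -0.16. At an unadjusted p under 0.05 in the edgeR test stood *Gnao1* (-0.32), *Gnai1* (-0.49) and the carboxypeptidase gene *Cpe* (-0.42).

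The other members of the system were scarce or not listed. *Galr2* had 74 UMIs in all kept cells and was highest in ependymal cells, at a pooled 4.35 CPM. The galanin-like peptide gene *Galp* had 77 UMIs and the related kisspeptin gene *Kiss1* had 45. *Galr3* and the spexin gene *Spx* were listed in none of the libraries. *Galr1* was the only galanin receptor gene with enough UMIs for a test between the groups.

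The groups were compared to ask whether tamoxifen changed galanin signaling and whether that depended on *Esr1*. In summed neurons, *Gal* stood at 101, 451 and 693 CPM in the wild-type oil mice, and at 670, 565, 451, 907 and 998 CPM in the wild-type tamoxifen mice. It stood at 834, 420, 637 and 551 CPM in the *Esr1* cKO oil mice, and at 569, 810, 516 and 740 CPM in the *Esr1* cKO tamoxifen mice. All 4 groups overlapped, and wild-type oil replicate 1 was the lowest of the 16 libraries. The highest wild-type tamoxifen values, 907 and 998 CPM, came from replicates 4 and 5. Both belong to the set of libraries with many shared barcodes, which held no wild-type oil mouse. The part of that set in the group values was not tested. In sums over cells, fewer cells of a type and less RNA per cell cannot be told apart.

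No group difference in *Gal* passed the test, and almost no gene did: 0% of 12443 genes were called in 4 of the 5 contrasts in neurons, and 0.00804% for *Esr1* cKO against wild-type mice on tamoxifen. By edgeR's quasi-likelihood test with Benjamini-Hochberg adjustment over 12443 genes, tamoxifen against oil gave a log2 fold change of 0.74 ± 0.42 (SE) in wild-type mice (adjusted p = 1) and 0.09 ± 0.40 in *Esr1* cKO mice (adjusted p = 1). *Esr1* cKO against wild-type mice gave 0.55 ± 0.43 on oil and -0.11 ± 0.38 on tamoxifen (adjusted p = 0.999 and 1). The difference of both tamoxifen effects was -0.65 ± 0.57 (adjusted p = 0.944). The wild-type value turned on single libraries. It was 0.28 without wild-type oil replicate 1 and 1.39 without replicate 3, 1 of the 2 libraries that stood apart.

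*Galr1* showed its lowest values in wild-type oil mice. It stood at 1.63, 5.13 and 4.10 CPM there (11 UMIs in all) and at 12, 14.3, 5.37, 16 and 8.47 CPM in wild-type tamoxifen mice (68 UMIs). The *Esr1* cKO oil mice stood at 4.89, 8.78, 4.89 and 11.4 CPM and the *Esr1* cKO tamoxifen mice at 11, 7.13, 6.0 and 11. The wild-type groups did not overlap, by a margin of 5.13 against 5.37 CPM. In this contrast 0% of all genes were called, and how many other genes separate these groups without overlap was not counted. The fitted difference was 1.49 ± 0.49 (log2), with an unadjusted p of 0.00746 that did not survive adjustment over all genes (adjusted p = 1 in the edgeR test). It ran from 1.23 to 1.78 with single libraries left out and from 1.29 to 2.0 under the other alternatives, none of which called it. In *Esr1* cKO mice it was 0.25 ± 0.42, between genotypes 0.91 ± 0.53 on oil and -0.33 ± 0.38 on tamoxifen, and the difference of the tamoxifen effects was -1.24 ± 0.65 (adjusted p = 0.932 in the edgeR test). The clusters that carry most *Galr1* varied in number between mice as well. The *Trh* cluster made up 0.301% to 2.95% of neurons in the wild-type oil and 1.18% to 2.75% in the wild-type tamoxifen libraries, and the *Gal* cluster took 9.94% to 20% of neurons in the first and 9.11% to 15.6% in the second. The part of these shares in the *Galr1* values was not tested.

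The few genes called around them were examined next. At an unadjusted p under 0.05 in edgeR's quasi-likelihood test, 413 genes were found for the wild-type and 383 for the cKO tamoxifen contrast. The same limit gave 572 for *Esr1* cKO against wild-type mice on oil and 647 for the difference of the tamoxifen effects, and DESeq2 called 1, 0, 1 and 0 genes in these contrasts. For *Esr1* cKO against wild-type mice on tamoxifen it gave 442 of the 12443 genes. The single gene called by edgeR, for *Esr1* cKO against wild-type mice on tamoxifen, was the matrix protein gene *Nov* (log2 fold change 3.69, adjusted p = 2.3e-04), which was among the leading genes of the *Tac2* neurons and of the fibroblast cluster with *Galr1*. Not one gene of galanin signaling, peptide processing or the partner lists was called in the 5 contrasts in neurons, with list medians between -0.44 and 0.25 for the lists of more than 1 gene tested. Of the 92 listed genes tested, 7 had an unadjusted edgeR p under 0.05 for the wild-type and 1 for the cKO tamoxifen contrast, 12 and 14 for the genotype on oil and on tamoxifen, and 5 for the difference. Among them *Npy2r* (1.12 and 1.24), *Tac2* (2.40 and 2.33), *Pcsk1* (1.08 and 0.99) and *Prlr* (0.86 and 0.55) had positive log2 differences between *Esr1* cKO and wild-type mice both on oil and on tamoxifen, with adjusted p-values from 0.321 to 1 in the edgeR test. They are named after their values were seen.

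Summed over all kept cells, the picture was similar. *Gal* changed by 0.83 ± 0.46 (log2) with tamoxifen in wild-type mice and by -0.05 ± 0.43 in *Esr1* cKO mice, and *Galr1* by 1.41 ± 0.46 (adjusted p = 1 in the edgeR test) and 0.08 ± 0.41. Here 0% of 16626 genes were called in each of the 5 contrasts. At an unadjusted p under 0.05 there were 311, 540, 965, 451 and 708 genes, and DESeq2 called 0, 0, 1, 0 and 1. Neurons made up 13.7% to 19% of kept cells in wild-type oil, 10.1% to 25.1% in wild-type tamoxifen, 14% to 22.1% in *Esr1* cKO oil and 11.4% to 25.0% in *Esr1* cKO tamoxifen libraries.

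**Figure D5:**
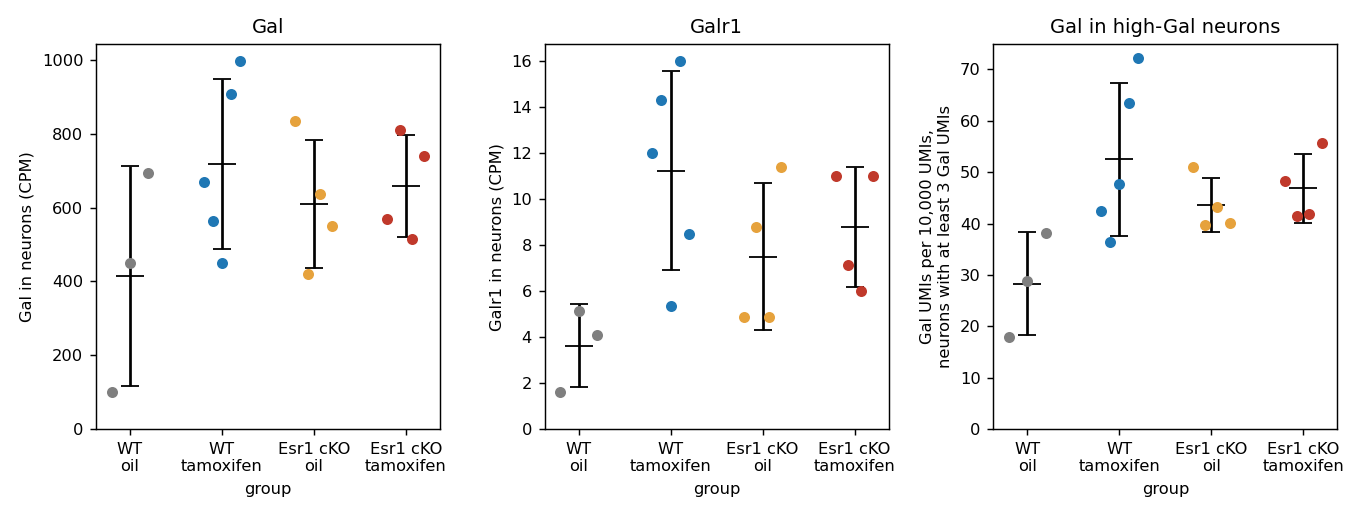
*Gal* (left) and *Galr1* (middle) in summed neurons, in CPM, and *Gal* UMIs per 10000 UMIs in neurons with at least 3 *Gal* UMIs (right). Points are libraries, and bars are the mean ± SD (WT, wild-type). The wild-type oil mice held the lowest mean in each panel, at 415 CPM, 3.62 CPM and 28.3 UMIs per 10000, and overlapped at least 1 other group in each panel.

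The share of neurons that carried the transcripts was compared as well. At least 3 *Gal* UMIs were found in 6.24% ± 3.66 (SD, n = 3) of neurons in wild-type oil, 6.40% ± 1.36 (n = 5) in wild-type tamoxifen, 7.81% ± 0.775 (n = 4) in *Esr1* cKO oil and 7.07% ± 1.86 (n = 4) in *Esr1* cKO tamoxifen mice. Thinned to 500 UMIs these shares were 1.72%, 3.25%, 3.72% and 2.93%, with 268, 781, 456 and 312 neurons left out as too shallow. *Galr1* was found in 0.650% ± 0.334, 1.59% ± 0.458, 1.52% ± 0.822 and 1.58% ± 0.251 of neurons in the same order, and in 0.225%, 0.313%, 0.511% and 0.648% after thinning. Between the wild-type groups the exact two-sided permutation test of the *Galr1* share gave p = 0.0714, where the smallest possible is 0.0179. Over the 12 share tests the adjusted p ran from 0.686 to 0.976. After thinning the order of the 2 wild-type groups kept its direction, and the difference shrank to 0.0879 percentage points.

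*Gal* was also measured inside the neurons that expressed it, a measure chosen after its values were seen. The same *Gal* UMIs both chose these neurons and gave the measure. The floor of 3 UMIs therefore shifts with depth, and the median depth of these neurons ran from 2328 to 4808 UMIs between libraries. In neurons with at least 3 *Gal* UMIs, *Gal* made up 18.0, 28.8 and 38.1 of every 10000 UMIs in the wild-type oil mice and 42.5, 36.5, 47.7, 63.5 and 72.2 in the wild-type tamoxifen mice. It made up 51.0, 39.7, 43.3 and 40.2 in the *Esr1* cKO oil mice and 48.2, 41.5, 41.9 and 55.7 in the *Esr1* cKO tamoxifen mice. The wild-type oil mice thus lay below both *Esr1* cKO groups without overlap, and overlapped the wild-type tamoxifen mice in 1 value. How many other genes separate these groups without overlap was not counted. Exact two-sided permutation tests gave p = 0.0286 for *Esr1* cKO against wild-type on oil (15.2 UMIs per 10000 higher), the smallest that 3 against 4 mice allow, and p = 0.0714 between the wild-type groups (24.1 higher on tamoxifen). Adjusted over the 4 contrasts, the p-values of these exact tests were 0.114 and 0.143. Wild-type oil replicate 1, at 18.0, rests on 7 such neurons, and without it the differences were 10 and 19 UMIs per 10000, with adjusted p-values of 0.286 for both in the exact test. Without replicate 3 of that group they were 20.1 and 29. The highest wild-type tamoxifen values, 63.5 and 72.2, came from replicates 4 and 5, of the set with many shared barcodes. Tamoxifen against oil in *Esr1* cKO mice (3.32) and *Esr1* cKO against wild-type on tamoxifen (-5.64) gave exact p-values of 0.514 and 0.476.

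The estrogen and progesterone receptor genes gave the following values in the same summed neurons. *Esr1* was at 60.1 ± 23.1, 66.1 ± 7.84, 48.6 ± 7.64 and 53.0 ± 26.3 CPM, and *Pgr* at 31.5 ± 23.8, 20.6 ± 7.28, 26.1 ± 8.19 and 14.9 ± 6.97 CPM, in wild-type oil, wild-type tamoxifen, *Esr1* cKO oil and *Esr1* cKO tamoxifen mice (SD, n = 3, 5, 4 and 4), and neither passed the edgeR test in any contrast.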

How the data were processed

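The 16 Drop-seq libraries, 1 per mouse, were grouped by genotype and injection from the labels. The authors deposited whole-number UMI counts per gene and barcode without normalization, and the processing notes of the submission name the build mm10, STAR 2.6 and Seurat 3.6.1. Barcodes held at least 20 genes, or 100 in the 2 libraries that stood apart. Mice of all groups were processed in parallel, 4 a day over 4 days, and the labels do not give the day of a library.

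Barcodes were kept as cells above 200 genes, below 4000 genes and at a mitochondrial share of UMIs under 15%, and clustered in Seurat 5.3.0 (2000 variable genes, 30 anchor dimensions, 20 components, resolution 0.05). Types were named from fixed markers, and neurons were clustered again (500 variable genes, resolution 0.7). *Gal* was a variable gene in both steps. The name of 1 cluster of neurons is not reported here. Scrublet called 494 doublets, which were removed only in an alternative. A level (CPM) is the UMIs of a gene per 1000000 UMIs summed over the cells of a library and type, for units of at least 10 cells. Levels called pooled were instead taken over the cells of all libraries together.

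Sums were tested with edgeR 4.0.16 (TMM, filterByExpr, quasi-likelihood, Benjamini-Hochberg over all genes tested, threshold 0.05), in 1 fit of the 4 groups, or, for classes of neurons, with the library as a block and at least 10 neurons of each class in a library. Neurons with at least 3 *Gal* UMIs, or 1 *Galr1* UMI, were set against neurons with none. For these classes the libraries higher or lower were counted on TMM-scaled CPM, whereas the printed CPM are unscaled. GABAergic neurons were those with UMIs of *Gad1*, *Gad2* or *Slc32a1* and glutamatergic those with UMIs of *Slc17a6*, without the other. Shares were compared by exact permutation, with intervals at a 95% level. DESeq2 1.42.0 was an alternative. The tests were checked on simulated counts, with the same spread for every gene and changes only in genes with more counts than *Galr1*. That check does not cover genes as sparse as *Galr1* or genes whose UMIs gather in few cells. The genes named are the 10 (*Gal* neurons) or 5 (*Galr1* neurons) with the largest change that moved the same way in every library, the members of the lists, and the 5 genes most like *Gal* and *Galr1* by Pearson correlation over units with at least 50 UMIs for the gene. The members and lists were chosen with earlier results of these data known. The measure of *Gal* inside *Gal* neurons, robust dispersions, the removal of shared barcodes and the removal of the 2 libraries that stood apart under their correct numbers were added after seeing the data. Gene models came from GENCODE on GRCm38 and promoters from RefSeq, which may differ from the annotation the authors counted on.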

Additional observations from a re-analysis of the deposited data

How the results depend on the processing

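No call on *Gal* or *Galr1* between the groups was made under any alternative that was run. The difference of *Gal* between GABAergic and glutamatergic neurons kept its call in all 9 alternatives (2.29 to 2.84, adjusted p up to 3.2e-05). Among the values named or compared, 812 of 862 alternative values of group and class results and 205 of 211 of single genes kept direction and call, while 42 changed sign, 8 counts of genes moved and 6 calls were lost. The call of *Gal* in *Galr1* neurons was lost with robust dispersions. In *Galr1* neurons DESeq2 lost *Hcrt*, *Kctd16* and *1500016L03Rik*, and the last was also lost with at least 1000 UMIs and without both libraries that stood apart. The cause was not tested.

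No value that changed sign had been called. For *Gal* in neurons, tamoxifen against oil in *Esr1* cKO mice turned to -0.06 with a mitochondrial share under 5%, and ran from -0.05 to 0.28 with libraries left out. *Esr1* cKO against wild-type on tamoxifen ran from -0.24 to 0.05. In all kept cells, *Gal* for *Esr1* cKO against wild-type on tamoxifen turned to -0.00 without a filter on low counts, to -0.01 with more than 500 genes per cell, to -0.01 without doublets and to -0.04 without shared barcodes, and ran from -0.19 to 0.16 with libraries left out. Tamoxifen against oil in *Esr1* cKO mice turned to 0.00 for *Gal* with more than 500 genes per cell, and ran from -0.26 to 0.30 for *Gal* and from -0.10 to 0.31 for *Galr1* with libraries left out.

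For shares of neurons (percentage points), *Esr1* cKO against wild-type on tamoxifen turned to -0.325 for at least 3 *Gal* UMIs and to 0.335 for *Galr1* after thinning, and for *Galr1* to 0.0197 with neurons taken by marker UMIs and to 0.112 without shared barcodes. With libraries left out, the share with a *Gal* UMI ran from -2.21 to 3.20 for tamoxifen in wild-type mice, from -0.270 to 5.15 for *Esr1* cKO against wild-type on oil and from -1.43 to 0.532 on tamoxifen. The share with at least 3 *Gal* UMIs ran from -1.91 to 1.57 and from -0.50 to 2.98 in the first 2 of these, and the *Galr1* share from -0.198 to 0.399 for tamoxifen in *Esr1* cKO mice and from -0.183 to 0.111 for *Esr1* cKO against wild-type on tamoxifen. Wild-type oil replicate 1 set the low ends of the *Gal* shares in the contrasts with wild-type oil mice, and replicate 3 the high ends.

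The number of genes called in *Gal* neurons was 326 higher and 1483 lower without a filter on low counts, where 24682 genes were tested, and 517 higher with at least 1000 UMIs. In *Galr1* neurons it was 2 higher and 4 lower in DESeq2, 153 lower without a filter, and 9 higher and 14 lower with at least 1000 UMIs.

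No paired analysis was possible because the labels give each library a single running number and no replicate numbers shared between groups. The study prepared 4 mice a day, so a term for successive fours of library numbers was fitted instead, although the labels do not tie these to days. It gave 0.63 for *Gal* and 1.29 for *Galr1* for tamoxifen in wild-type mice and called neither in any contrast. In the 3 fours with 1 library of every group, taken after seeing the data, *Gal* UMIs per 10000 in *Gal* neurons and *Galr1* CPM were higher in 3 of 3 both for tamoxifen in wild-type mice and for *Esr1* cKO over wild-type on oil, and *Gal* CPM in 2 and 1 of 3. The exact tests did not use these fours, within which 3 pairs cannot go below a two-sided p of 0.25. The planned removal of the 2 libraries that stand apart named replicate 2 of wild-type oil and of *Esr1* cKO tamoxifen, and both that version and the one without replicate 3 of each were run. A class of neurons with at least 2 *Galr1* UMIs could not be fitted, since no library held 10 of them. *Galr1* in GABAergic against glutamatergic neurons had a value only without the filter. With 11 *Galr1* UMIs in the neurons of wild-type oil mice, depth limits every comparison of *Galr1* between the groups.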
